A study of Mus musculus with 27 samples.

Results

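The experiment described here is the joint loss of Setdb1 and Dnmt1 in mouse fibroblasts. Its members are the libraries that combined 4-hydroxytamoxifen (4OHT) with an siRNA against Dnmt1 (4OHT + siDnmt1, 2 libraries), read against those that received control siRNA alone (siCtrl, 2 libraries), out of 8 libraries in the siRNA experiment and 27 in the series. The study asked how the H3K9 methyltransferase Setdb1 silences endogenous retroviruses (ERVs) in differentiated cells, and the siRNA experiment asked what happens when DNA methylation maintenance is lowered as well. RNA of Setdb1 conditional knockout immortalized mouse embryonic fibroblasts (Setdb1 cKO iMEFs) was sequenced, and gene levels were taken as FPKM (fragments scaled to transcript length and to the mapped fragments of the library).

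The 4 groups had 2 libraries each and shared the conditional Setdb1 allele, the cell line and repeated siRNA transfection. The siCtrl cells kept Setdb1 and received control siRNA. The siDnmt1 cells kept Setdb1 and received Dnmt1 siRNA. The 4OHT + siCtrl cells received 4OHT, which induces the deletion of Setdb1 in this line, with control siRNA. The 4OHT + siDnmt1 cells received 4OHT and Dnmt1 siRNA, and are called joint loss here. 4OHT was given on day 0 and RNA was taken on day 6. No group received 4OHT without the conditional allele, so the effect of 4OHT itself and that of Setdb1 loss cannot be told apart. The line is 1 clone of immortalized cells, picked for its response to 4OHT, and no source says that the libraries of a group came from separate cultures, so p-values measure the spread between these libraries, which may be technical. Of 23059 gene names, 21684 had a value in all 8 libraries, and the 10762 with at least 1 FPKM in at least 2 libraries are the genes tested across the whole table.

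Setdb1 trimethylates lysine 9 of histone H3 and can be brought to ERVs by zinc finger proteins through the corepressor Trim28. In fibroblasts the study found Trim28 mostly dispensable for keeping the VL30 family of ERVs silent. Dnmt1 copies DNA methylation onto the new strand after replication and thereby maintains the silencing of ERVs, imprinted loci and germline genes in somatic cells. When ERV transcripts or other nucleic acids reach cytosolic sensors, cells make type I interferon, which signals through Stat2 to a broad set of antiviral genes.

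The depth implied by the values was 13583000 to 15351000 fragments per library. Between the replicates of a group, the SD of the log2 ratio over genes above 5 FPKM was 0.208 in siCtrl, 0.178 in siDnmt1 and 0.334 in 4OHT + siDnmt1, but 0.520 in 4OHT + siCtrl. The 2 libraries of 4OHT + siCtrl stood apart from each other. The interferon-induced genes tested had a median of 65.4 FPKM in replicate 1 and 7.10 FPKM in replicate 2 of that group. The comparison of joint loss with siCtrl does not use the levels of the 4OHT + siCtrl libraries, but its test takes part of its error estimate from them. Without both of these libraries it called 1049 genes higher and 807 lower, against 933 and 744 with them.

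The targeted genes were read first. Dnmt1 (chr9:20711650-20764332, coordinates of the mm9 build throughout) was at 80.5 and 73.4 FPKM in siCtrl, 12.2 and 10.6 in siDnmt1, 78.7 and 78.3 in 4OHT + siCtrl and 12.2 and 11.4 in 4OHT + siDnmt1. All 4 libraries with Dnmt1 siRNA were low and did not overlap the others, and Dnmt1 fell in joint loss against siCtrl (log2 fold change -2.69 ± 0.11 (SE), adjusted p = 7.17e-05). Between joint loss and siDnmt1 alone the difference was 0.06 ± 0.11 (SE; adjusted p = 0.732). Setdb1 (chr3:95127447-95161124) was at 7.40 and 6.48 FPKM in siCtrl, 6.08 and 5.54 in siDnmt1, 7.58 and 5.00 in 4OHT + siCtrl and 5.40 and 6.94 in 4OHT + siDnmt1. Its groups overlapped (-0.18 ± 0.24, adjusted p = 0.593). A level summed over the whole locus need not fall when part of a gene is removed, so it does not check the 4OHT labels.

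The fibroblast label was read against 10 markers with a value. Vim, the mesenchymal intermediate filament protein, was at 925 and 965 FPKM in siCtrl and 1077 and 1378 in joint loss. Thy1, a surface glycoprotein, was at 59.2 and 61.3 FPKM in siCtrl and 62.6 and 68.7 in joint loss. Prrx1, a mesenchymal transcription factor, was at 92.7 and 92.8 FPKM in siCtrl and 49.5 and 49.3 in joint loss. Fap stayed at or below 0.366 FPKM in all 8 libraries and was the only one of the 10 below 1 FPKM throughout. Vim, Thy1 and Prrx1 were abundant in both groups, and for these 3 and S100a4 no difference was called. The other 5 of the 9 tested markers, Col1a1, Col1a2, Col3a1, Pdgfrb and Twist1, fell in joint loss, with Col1a2 at 987 and 1021 FPKM in siCtrl and 235 and 206 in joint loss and Twist1 at 47.2 and 51.5 and 23.5 and 14.5. The defining collagens thus remained present but at lower levels.

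Across all genes, joint loss differed widely from siCtrl. Levels were tested by limma on log2(FPKM + 0.1), and calls needed a p-value adjusted by Benjamini-Hochberg under 0.05 and a fold of at least 2. By that rule 933 genes rose (8.67% of those tested) and 744 fell (6.91%). The groups did not overlap for 75.8% of genes tested. At an unadjusted p under 0.05 by limma, 2793 of the 10762 tested genes were higher and 2189 lower. The unadjusted counts of the lists below are to be read beside these. The changes were large in both directions, since 437 of the higher genes and 255 of the lower ones passed 4-fold, 156 and 49 passed 16-fold, and 85 and 25 passed 32-fold. The constant of 0.1 understates the change of low genes. In 85 of the higher genes both siCtrl libraries were listed at 0, which in a table assembled library by library may also be a locus that was joined to a neighbour. The balance between the directions depended on scaling: with quantile normalization 716 genes were called higher and 890 lower (44.6% higher, against 55.6%). Leaving out siCtrl replicate 1 or 2 left 480 or 370 higher calls and 427 or 404 lower ones, and leaving out joint loss replicate 1 left 511 higher, so the numbers of calls depended on single libraries.

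**Figure D1:**
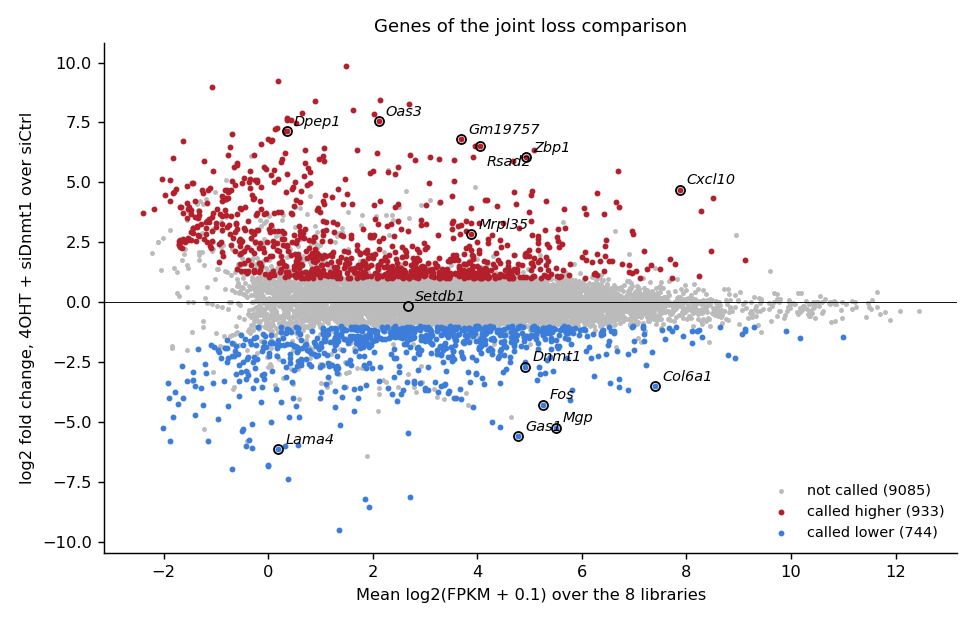
Each point is 1 of the 10762 tested genes. The x axis is the mean log2(FPKM + 0.1) over the 8 libraries and the y axis the log2 fold change of 4OHT + siDnmt1 over siCtrl. Red points are the 933 genes called higher, blue points the 744 called lower and grey points the remaining 9085, with 14 genes named. Interferon genes such as Oas3 and Rsad2 sit high, matrix and mesenchymal genes such as Lama4 and Gas1 sit low.

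The interferon-induced list had the largest share of higher calls among the 21 lists with 10 or more tested members. Of its 61 tested members 53 were called higher, against 8.67% of all tested genes, and 0 lower, with 58 higher and 0 lower at an unadjusted p under 0.05 by limma. The ligand Ifnb1, the signal transducer Stat2 and the factor Irf7 rose. The list holds 93 names, of which 62 had a value of their own. Their median log2 fold change was 3.93, beside 0.06 over all genes tested, and the groups did not overlap for 59 of 61, against 75.8% of all tested genes.

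Ifnb1 (chr4:88167929-88168698), the first interferon made by fibroblasts after infection, was listed at 0 in both siCtrl libraries, at 0.738 and 0.214 FPKM in siDnmt1, 4.08 and 0.727 in 4OHT + siCtrl and 26.2 and 8.54 in joint loss. The joint loss libraries held the most and did not overlap any other group (against siCtrl adjusted p = 0.00332, against siDnmt1 adjusted p = 0.0278, against 4OHT + siCtrl adjusted p = 0.157). Ifna4, a further interferon, was at 0.140 and 0 FPKM in siCtrl and 7.72 and 1.94 in joint loss (adjusted p = 0.0331). Ifna4 reached 1 FPKM only in the joint loss libraries, so it was tested only through the group in which it was high. Outside joint loss, Ifnb1 reached 1 FPKM only in 4OHT + siCtrl replicate 1. Mb21d1, which encodes the DNA sensor cGAS, rose from 8.23 and 7.73 to 38.7 and 25.5 FPKM (log2 fold change 1.97 ± 0.30 (SE), adjusted p = 0.00606). Socs3, a feedback inhibitor of cytokine signalling, fell from 19.6 and 24.1 to 5.91 and 5.95 FPKM (-1.86 ± 0.14 (SE), adjusted p = 0.000682). These were the only 4 calls, 3 higher and 1 lower, among the 20 tested members of the list of ligands, receptors and transducers. Of all tested genes 8.67% were called higher and 6.91% lower. The median of the list was 0.08. The receptor genes Ifnar1 and Ifnar2 and the adaptor Mavs did not pass, and the kinase gene Tbk1 stayed under the fold limit (0.86 ± 0.15 (SE), adjusted p = 0.00951). The higher calls numbered 6, 5 and 6 without 4OHT + siCtrl replicate 1, replicate 2 and both, and 2 without siCtrl replicate 2, joint loss replicate 1 or either siDnmt1 library.

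Among sensors and effectors, Ifih1, the cytosolic double-stranded RNA sensor Mda5, was at 5.22 and 5.14 FPKM in siCtrl, 14.9 and 15.0 in siDnmt1, 62.5 and 12.2 in 4OHT + siCtrl and 85.9 and 82.9 in joint loss (4.00 ± 0.67 (SE), adjusted p = 0.00788 against siCtrl). Oas3 (chr5:121203107-121227668), which makes the 2′,5′-linked oligoadenylates that switch on RNase L, was at 0.176 and 0.203, 5.27 and 5.56, 20.9 and 0.684 and 62.7 and 46.2 FPKM in the same order. It had the highest log2 fold change of the 795 called genes that were above 0 in all 8 libraries with groups apart (7.54 ± 1.35 (SE), adjusted p = 0.00978). In both genes the joint loss libraries were the highest, siCtrl the lowest, and the 2 libraries of 4OHT + siCtrl lay far apart.

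Rsad2, the antiviral enzyme viperin, was at 1.55 and 1.88, 9.44 and 8.23, 84.3 and 8.87 and 253 and 109 FPKM (6.52 ± 0.98 (SE), adjusted p = 0.00579). Oasl1, an oligoadenylate synthase-like protein, was at 3.48 and 3.45, 13.9 and 17.0, 209 and 31.9 and 348 and 248 FPKM (6.37 ± 0.79 (SE), adjusted p = 0.003). Zbp1, a sensor of Z-form nucleic acids, was at 4.55 and 4.84, 26.4 and 23, 132 and 3.92 and 414 and 240.5 FPKM (6.04 ± 1.44 (SE), adjusted p = 0.0233). In each gene joint loss lay above every library of siCtrl and siDnmt1, and replicate 1 of 4OHT + siCtrl lay far above its partner.

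Irf7, the interferon-inducible amplifier of the response, was at 21.2 and 21.5, 41.9 and 39.4, 279 and 14.6 and 369 and 290.5 FPKM (3.93 ± 1.21 (SE), adjusted p = 0.0487). Stat2 was at 7.56 and 5.45, 21.0 and 20.0, 81.1 and 14.1 and 138 and 92.1 FPKM (4.11 ± 0.75 (SE), adjusted p = 0.0101). The 8 tested members of the interferon-induced list without a call included Trim30a, Ifi44, Ifi27l2a, Lgals3bp, Bst2, Ifitm3 and Psmb9.

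As a list, the interferon-induced genes had a median of 5.32 and 5.46 FPKM in the siCtrl libraries, 13.9 and 14.1 in siDnmt1, 65.4 and 7.10 in 4OHT + siCtrl and 130 and 83.5 in joint loss. Their summed level was 1547 and 1649 FPKM in siCtrl, 2954 and 2939 in siDnmt1, 9890 and 1556 in 4OHT + siCtrl and 15900 and 10770 in joint loss. Both joint loss libraries were above all others. After leaving out both 4OHT + siCtrl libraries, or either one, 59 of 61 were called higher. The count was 9 and 4 without siCtrl replicate 1 and 2, 11 and 20 without joint loss replicate 1 and 2, and 27 after leaving out either siDnmt1 library. Whether more cells responded or each cell held more of these RNAs cannot be told apart in bulk libraries, here and for the other lists.

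Promoter sequences are shown for 4 of these genes because interferon-induced promoters often carry the interferon-stimulated response element. The motif searched was GAAA, any 2 bases and GAAA, on both strands, in the window from 250 bases before to 50 bases after each annotated start in the mm9 genome. It was found in 22 of 60 tested interferon-induced genes with a start (36.7%), in 302 of 9768 tested genes (3.09%), in 63 of 838 genes called higher (7.52%), in 16 of 688 called lower (2.33%) and in 1414 of 33917 annotated promoters (4.17%). The 4 were chosen for holding a match, and a match describes letters, not binding. The 250 bases before the start are given 5′ to 3′ on the gene's strand, with matches in capitals. Isg15, a ubiquitin-like protein joined to other proteins (chr4:155574928-155575177, minus strand), has overlapping matches printed as 1 run. Oas3 (chr5:121227671-121227920, minus strand) has 1 match. Usp18, the protease that removes Isg15 (chr6:121195674-121195923, plus strand), has 1 on each strand, and Rsad2 (chr12:27141318-27141567, minus strand) has 1 on the opposite strand.
Isg15: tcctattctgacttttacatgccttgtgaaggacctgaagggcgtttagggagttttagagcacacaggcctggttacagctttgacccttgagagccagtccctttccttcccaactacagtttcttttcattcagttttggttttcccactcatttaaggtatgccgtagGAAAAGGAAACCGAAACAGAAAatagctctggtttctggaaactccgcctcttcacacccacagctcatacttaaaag
Oas3: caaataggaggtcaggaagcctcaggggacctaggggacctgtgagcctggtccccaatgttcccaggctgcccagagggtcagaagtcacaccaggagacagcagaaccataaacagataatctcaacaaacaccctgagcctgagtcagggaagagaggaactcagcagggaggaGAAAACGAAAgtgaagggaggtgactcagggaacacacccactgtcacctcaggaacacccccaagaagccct
Usp18: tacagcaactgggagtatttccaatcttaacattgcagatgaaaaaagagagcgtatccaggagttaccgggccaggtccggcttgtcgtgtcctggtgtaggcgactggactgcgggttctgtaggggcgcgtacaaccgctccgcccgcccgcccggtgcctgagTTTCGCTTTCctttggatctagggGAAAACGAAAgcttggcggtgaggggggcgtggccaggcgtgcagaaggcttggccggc
Rsad2: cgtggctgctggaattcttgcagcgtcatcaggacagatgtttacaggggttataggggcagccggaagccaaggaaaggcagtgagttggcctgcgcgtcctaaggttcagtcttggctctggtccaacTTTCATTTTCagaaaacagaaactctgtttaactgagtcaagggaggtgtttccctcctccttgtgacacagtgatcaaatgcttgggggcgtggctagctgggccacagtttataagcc

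Isg15 was at 80.9 and 85.6 FPKM in siCtrl, 264 and 251 in siDnmt1, 937 and 147 in 4OHT + siCtrl and 1464 and 952 in joint loss (3.82 ± 0.78 (SE), adjusted p = 0.0146). Usp18 was at 7.25 and 8.62, 30.3 and 31.7, 136 and 4.10 and 216 and 186 FPKM (4.65 ± 1.42 (SE), adjusted p = 0.0484). For both genes the joint loss libraries were the highest of the 8, but Isg15 in 4OHT + siCtrl replicate 1 came close to joint loss replicate 2.

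**Figure D2:**
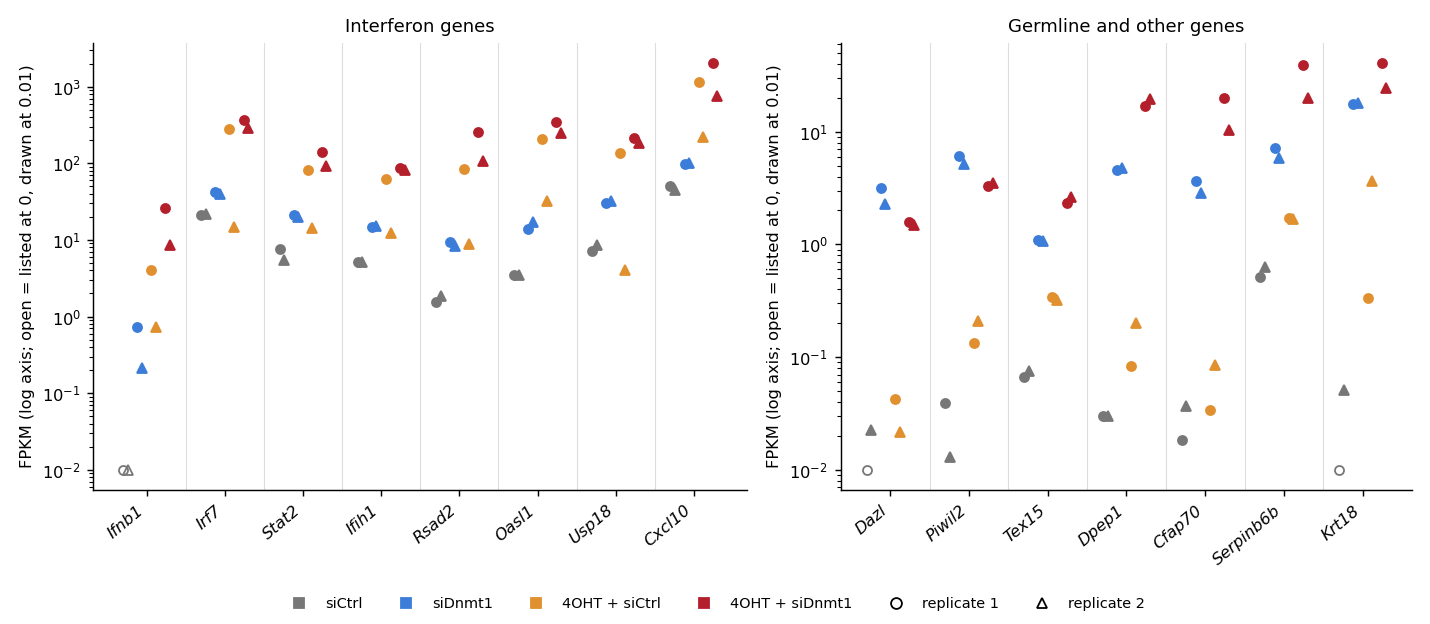
FPKM of 15 genes by library on a log axis, with circles for replicate 1 and triangles for replicate 2, and open symbols for values listed at 0, drawn at 0.01. In the left panel 8 interferon genes split between the 2 libraries of 4OHT + siCtrl. All but Cxcl10, whose joint loss replicate 2 lies below 4OHT + siCtrl replicate 1, are highest in joint loss. In the right panel 7 germline and other genes are high in the groups with Dnmt1 siRNA.

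Chemokines and cytokines moved in both directions. Of 16 tested members, 5 rose (Cxcl10, Cxcl11, Il33, Il6 and Lif) and 4 fell (Cx3cl1, Cxcl12, Cxcl14 and Cxcl5), with a median of 0.65. Of all tested genes 8.67% rose and 6.91% fell. Cxcl10, an interferon-induced T cell attractant, was at 50.6 and 44.3 FPKM in siCtrl, 99.4 and 102 in siDnmt1, 1149.5 and 222 in 4OHT + siCtrl and 2036 and 745 in joint loss (4.70 ± 0.79 (SE), adjusted p = 0.00805). Each group with a treatment lay above siCtrl, and joint loss replicate 2 lay below 4OHT + siCtrl replicate 1. Il6 was at 0.348 and 0.459 FPKM in siCtrl and 15.6 and 4.59 in joint loss (4.10 ± 1.04 (SE), adjusted p = 0.0284). Cxcl12, the stromal ligand of Cxcr4, fell from 92.4 and 92.7 to 11 and 27.1 FPKM (-2.42 ± 0.41 (SE), adjusted p = 0.00839). The higher calls numbered 1 without siCtrl replicate 1, siCtrl replicate 2 or joint loss replicate 1, and 3 without joint loss replicate 2 or either siDnmt1 library. The lower calls numbered 2 after leaving out either siCtrl library.

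Genes of RNA-triggered cell death were called higher in 5 of 13 tested members and lower in 0 (median 0.70, unadjusted p under 0.05 in 8 higher and 0 lower). Over all tested genes 8.67% were called higher and 6.91% lower. Beside Zbp1, the necroptosis kinase gene Ripk3 rose from 0.184 and 0.442 to 9.31 and 3.75 FPKM (3.94 ± 0.74 (SE), adjusted p = 0.0114), with 6.56 and 6.46 in siDnmt1 and 0.345 and 1.67 in 4OHT + siCtrl. Mlkl, the membrane-rupturing target of Ripk3, was at 13.8 and 14.3, 35.3 and 36.1, 61.9 and 26.7 and 134 and 98.9 FPKM (3.02 ± 0.37 (SE), adjusted p = 0.00295). Casp1 was listed at 0 in siCtrl and at 1.65 and 1.14 FPKM in joint loss (adjusted p = 0.00366), and Casp4 rose from 6.51 and 6.59 to 48.0 and 21.6 FPKM (2.28 ± 0.45 (SE), adjusted p = 0.0131). Casp1 and Casp4 encode inflammatory caspases. Casp1 reached 1 FPKM only in the joint loss libraries, so it was tested only through the group in which it was high. The calls numbered 1 without joint loss replicate 1, 2 without siCtrl replicate 1 and 3 without replicate 2 of either group.

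Germline genes rose to low or moderate levels. Of 57 with a value of their own in a list of 62, 39 stayed below 1 FPKM in all 8 libraries and 16 were tested. Of these 13 were called higher and 0 lower, beside 8.67% and 6.91% of all tested genes. Their median was 3.05 beside 0.06 over all genes, and 14 were higher and 0 lower at an unadjusted p under 0.05. A gene of this list could pass the filter through the groups in which it was high, so the tested 16 do not stand for all 57. Without a filter on low values 22 of 47 were called and with a pseudocount of 1, 7 of 16.

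Dazl, an RNA-binding protein of germ cells, was at 0 and 0.0226 FPKM in siCtrl, 3.15 and 2.30 in siDnmt1, 0.0423 and 0.0215 in 4OHT + siCtrl and 1.58 and 1.48 in joint loss (3.88 ± 0.37 (SE), adjusted p = 0.00143). Piwil2, a protein of the piRNA pathway, was at 0.0388 and 0.0130, 6.06 and 5.20, 0.134 and 0.210 and 3.29 and 3.53 FPKM (4.81 ± 0.30 (SE), adjusted p = 0.000356). In both genes the libraries with Dnmt1 siRNA were high, the others near 0, and joint loss lay below siDnmt1 by a difference that did not pass (adjusted p = 0.194 and 0.156). Tuba3b, a testis tubulin whose near-identical copy Tuba3a makes its value uncertain, was listed at 0 in siCtrl and 4OHT + siCtrl, at 15.5 and 18.1 FPKM in siDnmt1 and 16.2 and 12.1 in joint loss (adjusted p = 6.04e-05).

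Tex15, a meiotic gene, had another order, at 0.0668 and 0.0745 FPKM in siCtrl, 1.10 and 1.08 in siDnmt1, 0.341 and 0.320 in 4OHT + siCtrl and 2.34 and 2.64 in joint loss (3.92 ± 0.29 (SE), adjusted p = 0.000682). Tdrd9, a piRNA pathway helicase, was at 0.0132 and 0.0133, 0.335 and 0.170, 0.626 and 1.08 and 2.43 and 2.24 FPKM (4.43 ± 0.43 (SE), adjusted p = 0.00146), and joint loss exceeded siDnmt1 by 2.83 ± 0.43 (SE; adjusted p = 0.0173). In both, joint loss was above every other library. The other germline calls were Hormad1, Slc25a31, Taf7l, Tex101, Tex11, Tex12, Tex13 and Tuba3a. The number called was 9 after leaving out either siCtrl library and 7 or 8 without siDnmt1 replicate 1 or 2, when 10 and 11 genes were tested.

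The promoters of Dazl and Piwil2 are shown because germline promoters rich in CG steps are known to be methylated in somatic cells. In the same window the median number of CG steps was 19 over the 16 tested germline genes, 6 over the interferon-induced ones and 21 over all tested genes with a start. The 250 bases before the start, on the minus strand in both, hold 23 CG steps in Dazl (chr17:50432925-50433174) and 15 in Piwil2 (chr14:70828902-70829151), printed in capitals. No methylation was measured in these libraries.
Dazl: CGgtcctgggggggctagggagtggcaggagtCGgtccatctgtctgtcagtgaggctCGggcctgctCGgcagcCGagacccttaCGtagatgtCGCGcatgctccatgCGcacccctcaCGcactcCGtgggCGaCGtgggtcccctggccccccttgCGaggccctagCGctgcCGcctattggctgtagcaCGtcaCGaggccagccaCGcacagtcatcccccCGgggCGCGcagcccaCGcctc
Piwil2: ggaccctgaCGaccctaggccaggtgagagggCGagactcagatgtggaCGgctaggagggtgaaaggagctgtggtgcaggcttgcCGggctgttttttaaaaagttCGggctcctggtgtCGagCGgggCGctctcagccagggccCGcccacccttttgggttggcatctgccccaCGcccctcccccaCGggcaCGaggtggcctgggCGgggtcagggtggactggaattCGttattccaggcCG

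X-linked cancer-testis genes (Mage, Xlr and Rhox families) had 11 of 59 members tested, of which 6 were called higher and 2 lower. Of all tested genes 8.67% were called higher and 6.91% lower. The 6 were listed at 0 in both siCtrl libraries and passed the filter through the groups in which they were high, so their count does not stand for the 59. Xlr was listed at 0 in siCtrl and 4OHT + siCtrl, at 6.18 and 4.90 FPKM in siDnmt1 and 2.96 and 2.83 in joint loss (adjusted p = 0.000386). Rhox2c, Rhox2d, Rhox4a, Mageb16 and a joined Rhox2 locus had the same zeros in siCtrl, and as near-identical copies they are uncertain one by one. Maged1 and Maged2, which fibroblasts express, fell (Maged2 from 123 and 127 to 27.0 and 22.3 FPKM, -2.34 ± 0.25 (SE), adjusted p = 0.002). Among genes above 0 in all libraries 0 members were called higher, and the count was 2 after leaving out any 1 of the siCtrl or siDnmt1 libraries and 2 with a pseudocount of 1.

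Several single genes outside these lists went from near 0 to clear expression. Dpep1 (chr8:125710135-125725713), a membrane dipeptidase, was at 0.0299 and 0.030 FPKM in siCtrl, 4.59 and 4.72 in siDnmt1, 0.0842 and 0.200 in 4OHT + siCtrl and 17.0 and 19.6 in joint loss (7.14 ± 0.30 (SE), adjusted p = 9.04e-05). Joint loss exceeded siDnmt1 by 1.95 ± 0.30 (SE; adjusted p = 0.0181). Cfap70, a protein of cilia, was at 0.0182 and 0.0366, 3.67 and 2.83, 0.0342 and 0.0852 and 20.0 and 10.3 FPKM (6.83 ± 0.40 (SE), adjusted p = 0.000311). In both, joint loss lay above siDnmt1, and siCtrl and 4OHT + siCtrl stayed at or below 0.2 FPKM.

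Other genes were highest in siDnmt1. Gm19757 was at 1.00 and 0.714, 254 and 238, 0.981 and 1.11 and 119 and 92.7 FPKM (6.80 ± 0.19 (SE), adjusted p = 2.96e-05), and joint loss was lower than siDnmt1 (-1.22, adjusted p = 0.0191). Trpc6, a cation channel, was at 0.343 and 0.264, 56.0 and 61.4, 0.228 and 0.560 and 41.9 and 20.9 FPKM (6.21 ± 0.43 (SE), adjusted p = 0.000519). The olfactory receptor gene Olfr1055 was at 0.146 and 0.294, 46.6 and 56.1, 0.343 and 0.0700 and 34.0 and 19.23 FPKM (6.36 ± 0.52 (SE), adjusted p = 0.000902). For Trpc6 and Olfr1055 the difference between joint loss and siDnmt1 did not pass (adjusted p = 0.168 and 0.229). The remaining members of the 12 highest were A430078G23Rik, Pydc3, Oas2 and Mx2.

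Serpins, a family of protease inhibitors, were called in both directions, and the clade B members, which act inside cells, among those that rose. Of 12 tested serpins 6 rose (among them Serpinb1c, Serpinb6b, Serpinb9c, Serpinb9f and Serpinb9g) and 2 fell (Serpinh1 and the joined locus of Serpina3f and Serpina3g), with a median of 0.29. Over all tested genes 8.67% rose and 6.91% fell. Serpinb1c was listed at 0 in siCtrl and was at 11.6 and 11.4 FPKM in siDnmt1, 0.206 and 0.209 in 4OHT + siCtrl and 34.6 and 31.9 in joint loss (adjusted p = 1.26e-05, and 0.0119 against siDnmt1). Serpinb6b was at 0.517 and 0.630, 7.20 and 5.79, 1.73 and 1.69 and 39.0 and 19.7 FPKM (5.38 ± 0.33 (SE), adjusted p = 0.00034). Joint loss was the highest group in both, followed by siDnmt1, 4OHT + siCtrl and siCtrl. The family holds similar genes, so single members may share reads. The higher calls numbered 3 without joint loss replicate 2, 3 with a filter of 5 FPKM and 2 among genes above 0 in all libraries.

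Of 104 genes with the keratin prefixes Krt and Krtap 8 passed the filter, 1 of which, Krtcap2, is not a keratin. Of the 8, 6 were called higher and 0 lower, beside 8.67% and 6.91% of all tested genes. Krt8, Krt16, Krt17 and Krt18 were at or near 0 in siCtrl and passed the filter through the groups in which they were high, so the count does not stand for the 104. Krt18, a filament protein of simple epithelia, was at 0 and 0.0513 FPKM in siCtrl, 17.6 and 17.8 in siDnmt1, 0.336 and 3.67 in 4OHT + siCtrl and 40.7 and 24.2 in joint loss (8.0 ± 0.93 (SE), adjusted p = 0.00253). Its partner Krt8 was at 0.114 and 0, 36.7 and 36.4, 0.215 and 6.97 and 43.3 and 27.1 FPKM (7.87 ± 1.33 (SE), adjusted p = 0.00809). Krt16 was listed at 0 in siCtrl, at 0.567 and 0.975 FPKM in siDnmt1, 0.421 and 0.258 in 4OHT + siCtrl and 3.93 and 6.92 in joint loss, above both single treatments (adjusted p = 0.0177 and 0.0217). Cldn4, a tight junction claudin of epithelia, was at 0.0380 and 0 FPKM in siCtrl, 2.25 and 2.06 in siDnmt1, 0.143 and 0.981 in 4OHT + siCtrl and 3.59 and 4.24 in joint loss (5.09 ± 0.68 (SE), adjusted p = 0.00397). With Krt8 and Krt18 it made 3 called of the 4 tested in a list of 8 epithelial markers. The other members were low: Epcam stayed at or below 1.69 FPKM, Cdh1 at or below 0.937, and Krt5, Krt14 and Esrp1 stayed below 1 FPKM. The keratin calls numbered 2 after leaving out either joint loss library, 3 without siCtrl replicate 2 and 2 among genes above 0 in all libraries.

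The ERV families of the study were read from unnamed loci lying at least 50% inside their elements, as RPM (reads scaled to a depth of 1000000 fragments). Reads of IAPEz, MMERVK10C and the 4 VL30 classes were higher in joint loss than in siCtrl, and MMERVK10C reads were higher than in any other group. IAPEz, the intracisternal A particles kept silent by DNA methylation, had 0 and 2.11 RPM in siCtrl, 16062 and 16061 in siDnmt1, 0.717 and 1.71 in 4OHT + siCtrl and 7087 and 5148 in joint loss. Joint loss exceeded siCtrl (adjusted p = 0.00145) and lay below siDnmt1 in both libraries by a difference that did not pass (log2 -1.41 ± 1.31, adjusted p = 0.484).

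MMERVK10C, a related family with 167 elements, had 0 and 0 RPM in siCtrl, 2.71 and 3.81 in siDnmt1, 73.9 and 43.6 in 4OHT + siCtrl and 514 and 534 in joint loss. The joint loss libraries lay above all others, by a log2 difference of 3.20 ± 0.27 (SE), adjusted p = 0.00417 from 4OHT + siCtrl and of 7.30 ± 0.27 (SE), adjusted p = 0.000151 from siDnmt1. The interaction, read against siCtrl libraries at 0, did not pass (adjusted p = 0.235).

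VL30 elements are retroviral sequences grouped here by the class of their U3 promoter region. Class I had 71.6 and 60.2 RPM in siCtrl, 670.4 and 649.8 in siDnmt1, 2949 and 5130.1 in 4OHT + siCtrl and 5709 and 5224 in joint loss. Against siCtrl the log2 difference was 6.38 ± 0.25 (SE), adjusted p = 6.81e-05. Against 4OHT + siCtrl it was 0.49 ± 0.25 (SE; adjusted p = 0.334), so a difference between joint loss and 4OHT + siCtrl was not shown.

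Class III had 8.81 and 4.35, 292 and 283, 917 and 1429 and 1669 and 1241 RPM in the same order (7.84 ± 0.36 (SE), adjusted p = 0.000122 against siCtrl). Class IV had 2.82 and 5.37, 63.8 and 61.4, 221 and 374 and 442 and 340.0 (6.60 ± 0.36 (SE), adjusted p = 0.000238). Class II had no locus in siCtrl or siDnmt1, 11.2 and 40.1 RPM in 4OHT + siCtrl and 405 and 55.8 in joint loss, with replicates far apart (adjusted p = 0.0013 against siCtrl). Both joint loss libraries of class II lay above both of 4OHT + siCtrl, by a difference that did not pass (2.82 ± 0.97 (SE), adjusted p = 0.193). In classes I, III and IV the order was siCtrl, siDnmt1 and then the 4OHT groups, between which no difference passed. RLTR4, a murine leukaemia virus family, had 238 and 227, 176 and 168, 264 and 331 and 476 and 221 RPM and did not pass (0.48 ± 0.33 (SE), adjusted p = 0.307). Its joint loss libraries lay on both sides of the siCtrl level, at -0.07 without joint loss replicate 1 and 1.03 (adjusted p = 0.0142) without replicate 2.

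**Figure D3:**
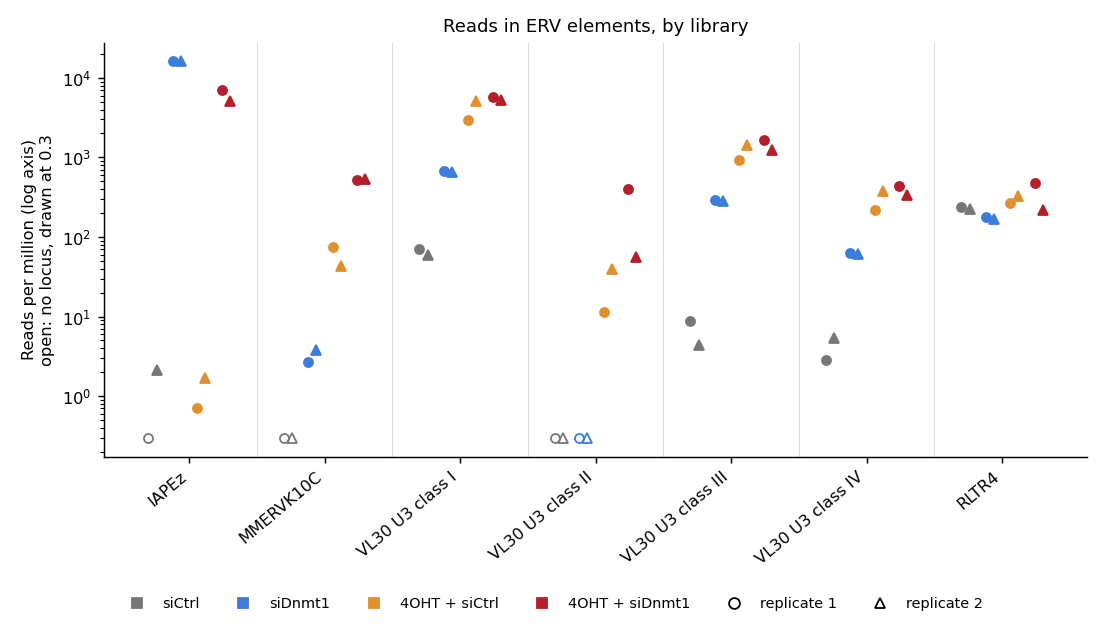
RPM in 7 ERV families by library, on a log axis, with circles for replicate 1 and triangles for replicate 2; open symbols mark libraries without a locus, drawn at 0.3. IAPEz reads appear with Dnmt1 siRNA, VL30 reads are highest with 4OHT, and MMERVK10C reads are highest in joint loss at 514 and 534.

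All unnamed loci together, of which these families are a part, numbered 2712 and 2500 in siCtrl, 8916 and 8915 in siDnmt1, 3557 and 4492 in 4OHT + siCtrl and 10397 and 9559 in joint loss. They took 7.17% and 5.80% of the depth in joint loss, beside 2.85% and 3.42% in siCtrl and 8.58% and 8.86% in siDnmt1. Joint loss thus had the most unnamed loci but not the largest share of reads in them. Reads that match several places were placed once by the aligner, so reads of similar elements may be exchanged between them. Few of the called genes lay close to an element. Of 933 higher genes 10 (1.07%) lay within 10 kb of an IAPEz element, beside 9 of 744 lower genes (1.21%) and 90 of 10762 tested (0.836%). For MMERVK10C the shares were 0.643%, 0.806% and 0.381%. For VL30 class I they were 0.429%, 0% and 0.13%, from 4 higher genes and 0 lower ones. For RLTR4 they were 0.429%, 0% and 0.251%, from 4 higher genes and 0 lower ones. VL30 class II had 0.322%, 0.134% and 0.167%, class III 0.214%, 0% and 0.269%, and class IV 0.214%, 0% and 0.065%. These came from 3, 2 and 2 higher genes and 1, 0 and 0 lower ones. Differences between these small counts were not tested. Among the genes named for their size, Dcn lay 7438 bases from an MMERVK10C element and Gm13283 2622 bases from another. The gene 4933409K07Rik, called higher, was at 0 bases from IAPEz, MMERVK10C and every VL30 class. Its listed span, chr4:588639-42476567, joins near-identical loci far apart. It therefore adds to the higher count of each of these families without showing that an element is close.

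Of 41 tested silencing factors 5 rose and 3 fell, 1 of them the targeted Dnmt1, with a median of -0.05. These counts lie near the shares over all tested genes, 8.67% higher and 6.91% lower, so they set the list apart in neither direction. 2810474O19Rik, now named Resf1 and a Setdb1 partner, was at 18.2 and 16.9 FPKM in siCtrl, 17.2 and 16.4 in siDnmt1, 76.1 and 65.9 in 4OHT + siCtrl and 66.0 and 61.2 in joint loss (1.85 ± 0.11 (SE), adjusted p = 0.000304). Atf7ip, the cofactor that stabilizes Setdb1, rose from 16.8 and 14.4 to 32.3 and 31.0 FPKM (1.02 ± 0.13 (SE), adjusted p = 0.00293), with 40.6 and 35.2 in 4OHT + siCtrl. Both genes were high in the 4OHT groups and low in the groups that kept Setdb1.

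Zfp809, a zinc finger protein that recruits silencing to proviruses, was at 5.68 and 5.57, 6.94 and 7.14, 9.30 and 14.1 and 15.6 and 16.9 FPKM (1.51 ± 0.20 (SE), adjusted p = 0.00393). Fam208a (the HUSH subunit Tasor) and Morc3 were the other genes that rose, and the methylcytosine oxidase genes Tet1 and Tet3 fell beside Dnmt1 (Tet3 from 5.79 and 6.67 to 2.34 and 2.96 FPKM, -1.21 ± 0.23 (SE), adjusted p = 0.0113). Trim28, Ehmt1, Ehmt2, Suv39h1, Suv39h2, Cbx1 and Cbx5 did not pass, and Dnmt3a (-0.99, adjusted p = 0.00786) stayed just under the fold limit. Higher calls numbered 2 under median-ratio scaling, quantile normalization and a pseudocount of 1, 2 without joint loss replicate 1 and 3 without siCtrl replicate 2. Lower calls numbered 1 with that pseudocount, 5 with quantile normalization, and 1 without siCtrl replicate 1 or joint loss replicate 1.

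Genes named Zfp, most of them zinc finger proteins, were called higher in 34 of 266 tested members and lower in 9, beside 8.67% and 6.91% of all tested genes, with a median of 0.44. Zfp37 was at 6.35 and 5.48 FPKM in siCtrl, 17.0 and 14.9 in siDnmt1, 34.5 and 36.2 in 4OHT + siCtrl and 41.1 and 41.9 in joint loss (2.79 ± 0.12 (SE), adjusted p = 9.04e-05). Zfp958 was at 2.57 and 2.70, 3.05 and 3.05, 10.9 and 9.79 and 14.3 and 12.5 FPKM (2.30 ± 0.14 (SE), adjusted p = 0.000325). Both were high in the 4OHT groups, and Zfp37 in siDnmt1 lay between siCtrl and those groups. Zfp36, which destabilizes cytokine mRNAs and is no silencing factor, fell from 169.6 and 174 to 21.2 and 25.5 FPKM (-2.88 ± 0.58 (SE), adjusted p = 0.0139). The higher calls numbered 22 with quantile normalization, 21 with a pseudocount of 1, 20 without joint loss replicate 1, and 19 and 13 without siCtrl replicate 1 and 2. The lower calls numbered 5 without joint loss replicate 1 or siCtrl replicate 1 and 4 without siCtrl replicate 2.

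On the lower side, matrix genes had the largest share of lower calls among the 21 lists with 10 or more tested members. Over all tested genes 6.91% fell and 8.67% rose. Collagens and other matrix genes fell in 15 of 22 tested members and rose in 1, Mmp2, with a median of -2.06. Contractile and TGF-beta response genes fell in 11 of 19 and rose in 1, with a median of -1.18. Fibroblast markers fell in 5 of 9 and rose in 0 (6 lower and 0 higher at an unadjusted p under 0.05), with a median of -1.41. Of 22 clustered protocadherins, a family of neuronal adhesion proteins, 5 were tested and all 5 fell (Pcdhb16, Pcdhb17, Pcdhb18, Pcdhb21 and Pcdhb22). As similar neighbours they may share reads, and since low genes passed the filter through the groups in which they were high, this count does not stand for the 22.

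Col6a1, a chain of the microfibrillar collagen VI, was at 556 and 569 FPKM in siCtrl, 259.9 and 256 in siDnmt1, 114 and 112 in 4OHT + siCtrl and 55.5 and 44.3 in joint loss. It fell against siCtrl (-3.50 ± 0.11 (SE), adjusted p = 4.19e-05), against siDnmt1 (adjusted p = 0.000396) and against 4OHT + siCtrl (adjusted p = 0.00705), and the 4 groups did not overlap. Col1a1, the main fibrillar collagen chain, was at 1106 and 1148, 598 and 643, 317 and 416 and 243 and 202 FPKM (-2.35 ± 0.15 (SE), adjusted p = 0.000431). Col3a1 was at 391 and 374, 176 and 174, 31.0 and 99.1 and 53.1 and 20.0 FPKM (-3.55 ± 0.62 (SE), adjusted p = 0.00917). For Col1a1 joint loss was the lowest group, while for Col3a1 the 2 groups with 4OHT overlapped.

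Lama4 (chr10:38685321-38829994), a laminin chain of basement membranes, had the lowest log2 fold change of the 719 genes that fell with values above 0 throughout and groups apart. It was at 12.5 and 12.6 FPKM in siCtrl, 2.22 and 2.29 in siDnmt1, 0.617 and 0.0399 in 4OHT + siCtrl and 0.0308 and 0.144 in joint loss (-6.14 ± 0.75 (SE), adjusted p = 0.0029). Bmp3, a bone morphogenetic protein, was at 11 and 10.6, 0.687 and 0.586, 0.0854 and 0.174 and 0.139 and 0.0215 FPKM (-6.00 ± 0.43 (SE), adjusted p = 0.000561). Both genes were lowest in the 2 groups with 4OHT, which overlapped.

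Gas1, a membrane protein raised in growth-arrested fibroblasts, was at 178 and 189, 34.5 and 38.4, 18 and 26.6 and 5.82 and 2.37 FPKM (-5.58 ± 0.40 (SE), adjusted p = 0.000564). Joint loss was below 4OHT + siCtrl by 2.52 on the log2 scale (adjusted p = 0.0407) and was the lowest group. Mgp, an inhibitor of matrix calcification, was at 247 and 255, 100.2 and 94.1, 30.3 and 22.0 and 14.1 and 2.99 FPKM (-5.24 ± 0.64 (SE), adjusted p = 0.00293). Cxcl14, a stromal chemokine, fell from 129 and 130.2 to 6.04 and 1.88 FPKM (-5.22 ± 0.49 (SE), adjusted p = 0.00134), with 73.4 and 72.1 in siDnmt1 and 5.62 and 7.78 in 4OHT + siCtrl. The rest of the 12 with the most negative values were Ndnf, Svep1, Kif26b, Osr2, Mfap4, Postn and a joined locus of Kctd12 and Mir5130.

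Acta2, smooth muscle actin, was at 409.7 and 438 FPKM in siCtrl, 249 and 244 in siDnmt1, 159 and 30.0 in 4OHT + siCtrl and 48.4 and 97.0 in joint loss (-2.63 ± 0.74 (SE), adjusted p = 0.0379). Postn, a matricellular protein induced by TGF-beta, was at 104 and 95.6, 78.5 and 75.1, 10.5 and 3.22 and 1.05 and 8.45 FPKM (-4.99 ± 0.95 (SE), adjusted p = 0.0118). Tgfbi, a further TGF-beta-induced matrix protein, was at 36.0 and 38.4, 54.4 and 53.9, 20.4 and 20.3 and 9.73 and 12.9 FPKM (-1.72 ± 0.14 (SE), adjusted p = 0.000906). In joint loss Tgfbi was below both single treatments (-0.86, adjusted p = 0.0447 against 4OHT + siCtrl, and -2.26, adjusted p = 0.00105 against siDnmt1). Pdgfrb, the receptor tyrosine kinase of mesenchymal cells, fell from 34.7 and 32.5 to 1.82 and 3.57 FPKM (-3.67 ± 0.45 (SE), adjusted p = 0.00303). The lower calls of the contractile list numbered 5 after leaving out either siCtrl library, 6 and 7 without joint loss replicate 1 and 2 and 7 after leaving out either siDnmt1 library, and those of the fibroblast list 3 after leaving out either siCtrl library.

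**Figure D4:**
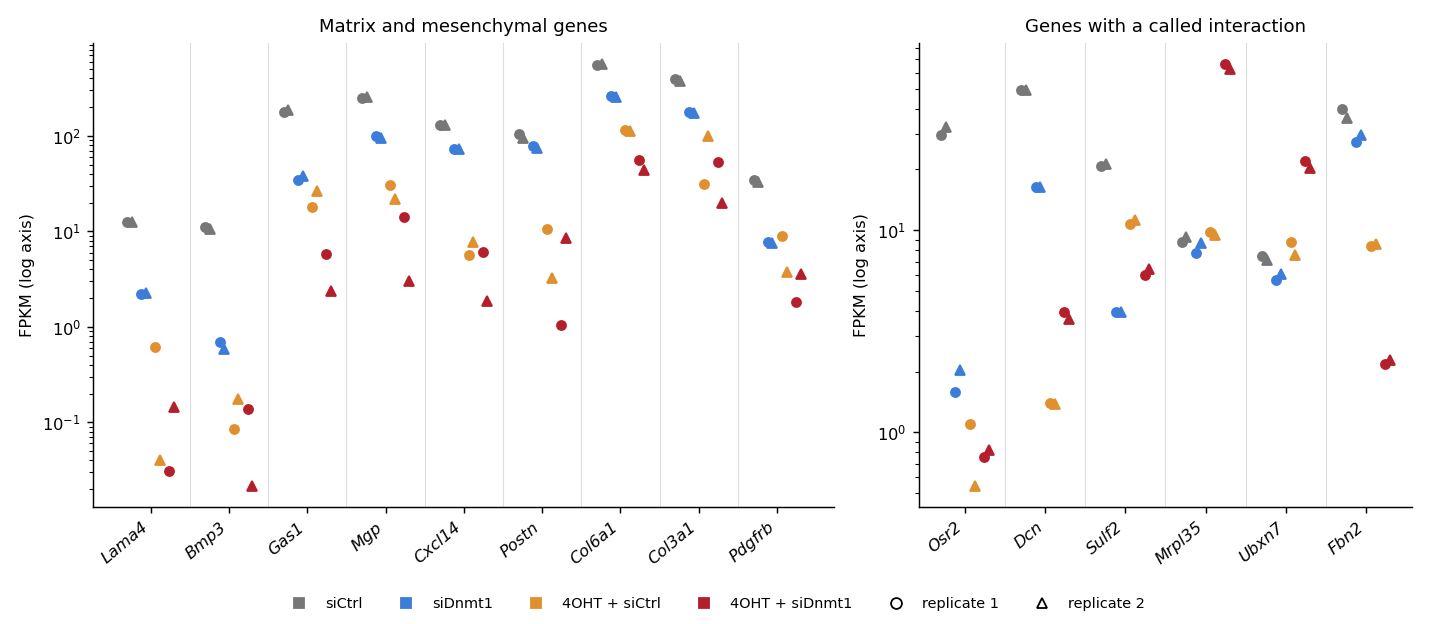
FPKM of 15 genes by library on a log axis, with circles for replicate 1 and triangles for replicate 2. In the left panel 9 matrix and mesenchymal genes are highest in siCtrl, and joint loss lies at or near the bottom. The right panel holds the 6 genes with a called interaction and values above 0 in all libraries, of which Mrpl35 and Ubxn7 are highest in joint loss.

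Target genes of the MAPK pathway, among them immediate early genes, fell in 7 of 24 tested members and rose in 1, with a median of -0.37. Of all tested genes 6.91% fell and 8.67% rose. Fos, a subunit of AP-1, was at 256 and 256 FPKM in siCtrl, 39.9 and 36.3 in siDnmt1, 46.3 and 5.43 in 4OHT + siCtrl and 7.92 and 21.9 in joint loss (-4.27 ± 0.96 (SE), adjusted p = 0.0195). Egr3, a serum-induced zinc finger factor, was at 29.6 and 26.8, 7.16 and 7.34, 6.29 and 4.98 and 2.96 and 2.28 FPKM (-3.39 ± 0.18 (SE), adjusted p = 0.000232), and was lower in joint loss than in either single treatment (adjusted p = 0.0465 and 0.0123). The other members that fell were Egr2, Ier2, Ier3, Junb and Spry1. Fosl1, a further AP-1 subunit, rose from 10.3 and 10.1 to 75.4 and 34.1 FPKM (2.31 ± 0.34 (SE), adjusted p = 0.00556). The lower calls numbered 2 after leaving out either siCtrl library and 3 and 4 without joint loss replicate 1 and 2. In a separate list of Ets, AP-1 and retinoid receptor factors 1 of 11 fell, Fosl2 (35.1 and 32.6 to 13.2 and 12.7 FPKM, -1.37 ± 0.10 (SE), adjusted p = 0.000507).

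Cholesterol synthesis genes fell in 7 of 21 tested members and rose in 0 (17 lower and 1 higher at an unadjusted p under 0.05), with a median of -0.86. Of all tested genes 6.91% fell and 8.67% rose. Cyp51, the lanosterol demethylase, was at 79.7 and 85.9 FPKM in siCtrl, 73.4 and 74.1 in siDnmt1, 33.6 and 31.0 in 4OHT + siCtrl and 23.9 and 22.0 in joint loss (-1.85 ± 0.09 (SE), adjusted p = 0.00018). Sqle, the squalene epoxidase, was at 82.5 and 83.0, 80.8 and 84.3, 44.5 and 42.1 and 39.3 and 39.0 FPKM (-1.08 ± 0.08 (SE), adjusted p = 0.000564). Insig1, which holds the sterol sensor complex in the endoplasmic reticulum, fell from 53.5 and 49.2 to 13.5 and 14.4 FPKM (-1.87 ± 0.30 (SE), adjusted p = 0.00672). For Sqle the siDnmt1 libraries lay on both sides of siCtrl, and for Sqle and Cyp51 the 2 groups with 4OHT were the lowest. Fdps, Lss, Mvk and Nsdhl were the other calls. With the adjusted p alone and no fold limit, 17 of 21 were lower, beside 1653 of all 10762 tested genes.

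Stress genes were read as 2 lists. Of 23 tested Atf4 targets 5 rose (Cebpg, Ddit3, Ero1l, Nupr1 and Psph) and 0 fell, with a median of 0.66 (9 higher and 1 lower at an unadjusted p under 0.05). Over all tested genes 8.67% rose and 6.91% fell. Ddit3 and Psph were listed at 0 in siCtrl, which may be a locus counted under a joined name, so their calls are uncertain. Nupr1, a stress-induced nuclear protein, was at 19.13 and 16.3 FPKM in siCtrl, 45.8 and 42.8 in siDnmt1, 75.4 and 42.6 in 4OHT + siCtrl and 117 and 94.4 in joint loss (2.57 ± 0.27 (SE), adjusted p = 0.00192). Chac1 and Trib3 did not pass, with Trib3 at 9.78 and 11.3 FPKM in siCtrl and 42.0 and 38.4 in joint loss (1.92 ± 0.78 (SE), adjusted p = 0.105), and without both 4OHT + siCtrl libraries 10 members were called. The calls numbered 3 without siCtrl replicate 1 or after leaving out either library of joint loss or siDnmt1, 2 without siCtrl replicate 2, and 3 among genes above 0 in all libraries.

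Among 25 p53 targets 3 rose and 2 fell, near the 8.67% and 6.91% over all tested genes, with a median of 0.27. Gdf15, a stress-induced secreted factor, was at 0.0696 and 0.140 FPKM in siCtrl, 5.81 and 5.08 in siDnmt1, 0.457 and 0.865 in 4OHT + siCtrl and 9.38 and 10.1 in joint loss (5.61 ± 0.33 (SE), adjusted p = 0.000311). Sesn1 fell from 19.5 and 19.9 to 4.14 and 4.87 FPKM (-2.11 ± 0.16 (SE), adjusted p = 0.000682). Cdkn1a, the cell cycle inhibitor p21, was at 47.7 and 47.5, 20.0 and 20.7, 57.5 and 103 and 56.2 and 59.0 FPKM and did not pass against siCtrl (adjusted p = 0.429). Perp and Pmaip1 rose and Fas fell, with Pmaip1 just past the fold limit (1.00 ± 0.15 (SE), adjusted p = 0.00537). The higher calls numbered 1 without siCtrl replicate 2 or joint loss replicate 1 and with quantile normalization, and the lower calls 1 without siCtrl replicate 1, siCtrl replicate 2 or joint loss replicate 2.

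Of 30 proliferation genes 1 rose, Ccne1 (12.2 and 13.9 to 43.2 and 25.8 FPKM, 1.35 ± 0.24 (SE), adjusted p = 0.0096), and 0 fell. Of all tested genes 8.67% rose and 6.91% fell. The median of the list was -0.15. By limma 2 members were higher and 10 lower at an unadjusted p under 0.05, beside 2793 and 2189 of all 10762 tested genes. Ccne1, a cyclin of the G1 to S transition, was not called without joint loss replicate 1, siCtrl replicate 1 or siCtrl replicate 2. With the adjusted p alone 7 were lower, beside 1653 of all 10762 tested genes. Among the 7 was Top2a (170.3 and 160.2 to 105 and 119 FPKM, -0.56 ± 0.09 (SE), adjusted p = 0.00666).

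Imprinted genes fell in 5 of 18 tested members (Dcn, Dlk1, Igf2r, Peg10 and Peg13) and rose in 1, Mcts2, with a median of -0.92. Of all tested genes 6.91% fell and 8.67% rose. Dlk1, a paternally expressed Notch-like ligand, was at 80.1 and 88.7 FPKM in siCtrl, 89.8 and 93.2 in siDnmt1, 74.7 and 44.0 in 4OHT + siCtrl and 25.8 and 41.5 in joint loss (-1.36 ± 0.30 (SE), adjusted p = 0.0186). Mcts2, a paternally expressed retrogene, rose from 6.13 and 6.78 to 18.7 and 14.8 FPKM (1.36 ± 0.20 (SE), adjusted p = 0.00576). Alleles were not separated. The lower calls numbered 2 after leaving out either siCtrl library and 8 without 4OHT + siCtrl replicate 1, replicate 2 or both. Of 12 tested Hox genes 4 rose and 2 fell (median 0.39). Hoxa13, of the distal end of its cluster, fell from 4.08 and 4.46 to 0.945 and 0.589 FPKM (-2.36 ± 0.33 (SE), adjusted p = 0.00446), and Hoxc6 rose from 0.748 and 0.884 to 2.92 and 3.79 FPKM (1.91 ± 0.41 (SE), adjusted p = 0.0169). The higher Hox calls numbered 1 without siCtrl replicate 1 and with quantile normalization, 0 without siCtrl replicate 2 or joint loss replicate 1, and 2 without joint loss replicate 2 and with a pseudocount of 0.01 or 1. Cluster histone genes, whose RNAs often lack the poly(A) tail, were called higher in 2 of 49 and lower in 0, and Slc transporters higher in 19 of 166 and lower in 8 (median 0.03), near the 8.67% and 6.91% over all tested genes. The higher Slc calls numbered 11 without joint loss replicate 1, 9 and 8 without siCtrl replicate 1 and 2, and 12 after leaving out either siDnmt1 library, and the lower ones 4 and 3 without siCtrl replicate 1 and 2. Histone calls numbered 1 without joint loss replicate 1 or siCtrl replicate 1 and 4 without siCtrl replicate 2.

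**Figure D5:**
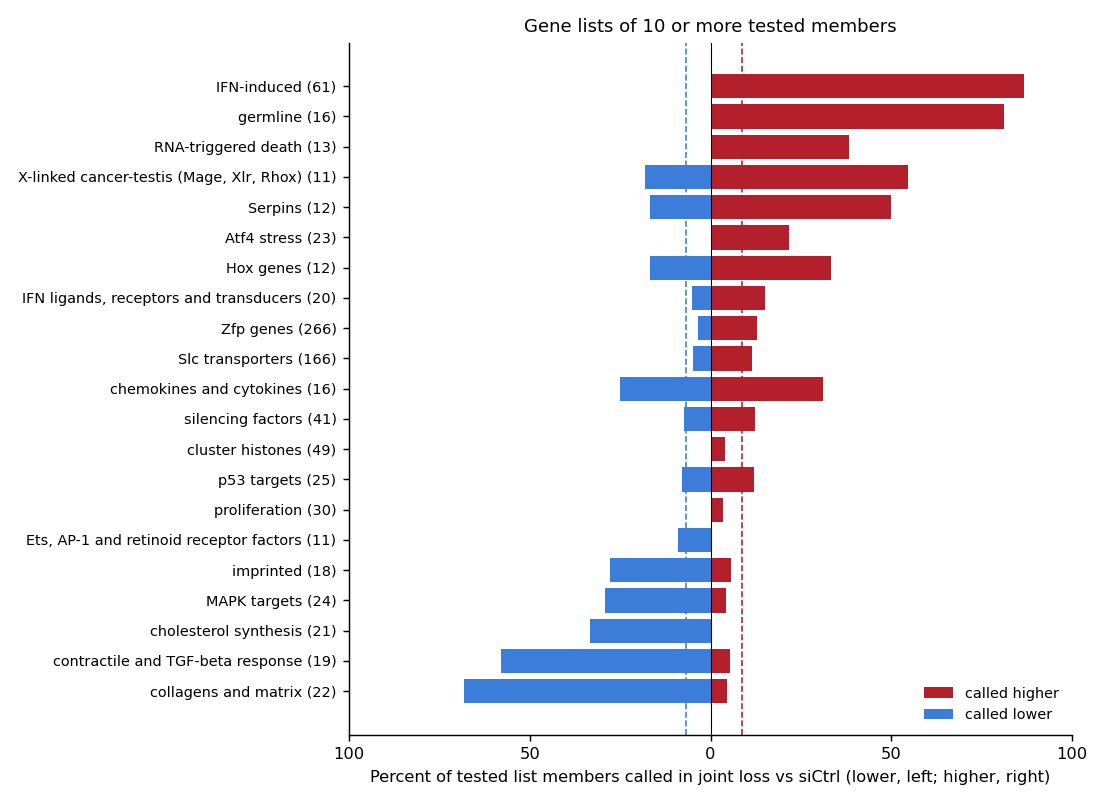
For 21 lists with 10 or more tested members, bars to the right give the percent of members called higher in joint loss against siCtrl and bars to the left the percent called lower, with the number tested in brackets. Dashed lines mark the shares over all tested genes, 8.67% higher and 6.91% lower. The interferon-induced (53 of 61) and germline (13 of 16) lists extend farthest to the right, and the matrix list (15 of 22) farthest to the left.

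Markers of other cell types were mostly absent. Of 11 haematopoietic markers 9 stayed below 1 FPKM in all 8 libraries, Cd3e and Tyrobp were listed at 0 throughout, and Ptprc was at most 0.0352 FPKM. Their summed level was 3.92 and 4.76 FPKM in siCtrl and 11.1 and 11.7 in joint loss, mostly from Cd68, a lysosomal protein, which rose from 2.87 and 3.0 to 8.31 and 8.55 FPKM (1.49 ± 0.40 (SE), adjusted p = 0.0341), and Cd14, the only 2 tested. Neither was called after leaving out either library of joint loss or siDnmt1, or siCtrl replicate 1. All 6 endothelial markers stayed below 1 FPKM. Myod1, the muscle determination factor, was listed at 0 in siCtrl, at 0.0718 and 0.256 FPKM in siDnmt1, 0.0347 and 0.283 in 4OHT + siCtrl and 2.30 and 3.98 in joint loss (adjusted p = 0.00436), while Myog was at most 0.102 FPKM. Of 7 neuronal markers 2 were tested, and they went in opposite directions. Tubb3 rose from 16.2 and 17.8 to 36.5 and 50.4 FPKM (1.33 ± 0.21 (SE), adjusted p = 0.00678). Map2 was at 5.134 and 4.262 FPKM in siCtrl and lower in joint loss, at 2.425 and 3.632, without a call. Snap25 was listed at 0 throughout. Myod1 was not called after leaving out either joint loss library. It reached 1 FPKM only in those libraries, so it was tested only through the group in which it was high. Of 19 two-cell and pluripotency genes 15 stayed below 1 FPKM, and Klf4, also a fibroblast gene, rose from 9.30 and 7.46 to 25.7 and 25.6 FPKM (1.61 ± 0.43 (SE), adjusted p = 0.0331), a call lost without any 1 of the libraries of siCtrl, siDnmt1 or joint loss. Zscan4a, Zscan4b, Zscan4c, Zscan4d and Zscan4f were listed at 0 in siCtrl and above 0 in every library with 4OHT, but were too low to be tested. Zscan4b was at 0.5548 and 0.5653 FPKM in 4OHT + siCtrl and 1.125 and 0.8801 in joint loss, and Zscan4f at 0.3527 and 0.6829 and 1.258 and 0.4397. Whether cells of another type entered these values was not tested.

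Joint loss was next compared with 4OHT + siCtrl, which asks what Dnmt1 siRNA added in cells treated with 4OHT. By the same rule 117 genes rose (1.09%) and 44 fell (0.409%), and the groups did not overlap for 43.8%. Germline genes were called higher in 9 of 16 and lower in 0, with a median of 2.69 beside -0.02 over all genes. As above, these genes could pass the filter through the groups in which they were high, here those with Dnmt1 siRNA. The count and median therefore do not stand for all 57. The 5 of 12 serpins called higher were the clade B genes named above, and the reads of MMERVK10C and IAPEz rose. The interferon-induced genes had a median of 2.06 but 0 calls in either direction, beside the split of the 4OHT + siCtrl libraries. At an unadjusted p under 0.05 by limma 27 of 61 were higher and 0 lower. Of all 10762 tested genes 978 were higher and 1127 lower at that p. This comparison and the one with siDnmt1 share the joint loss libraries with the comparison above.

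The highest genes were Olfr1055 (log2 fold change 6.55 ± 0.52 (SE), adjusted p = 0.00332), Gm19757 (6.53), Cfap70 (6.52), Dpep1 (6.28), Trpc6 (6.00) and 4933409K07Rik, whose value joins several near-identical loci and is uncertain. Beside Dnmt1 itself and Gas1, those with the most negative values were Rnf150, P4ha3, Stx8 and C530008M17Rik. P4ha3, a collagen prolyl hydroxylase, was at 3.11 and 3.24 FPKM in 4OHT + siCtrl and 0.446 and 0.632 in joint loss (-2.37 ± 0.25 (SE), adjusted p = 0.0101). Stx8, a syntaxin of endosomes, was at 3.99 and 4.14 FPKM in siCtrl, 3.82 and 3.69 in siDnmt1, 28.6 and 20.5 in 4OHT + siCtrl and 5.03 and 4.85 in joint loss (-2.27 ± 0.18 (SE), adjusted p = 0.00332), so only the 4OHT + siCtrl libraries were high. The counts depended on those libraries. Without 4OHT + siCtrl replicate 1, 596 genes were called higher and 282 lower, and without replicate 2, 226 and 103. They were 44 and 28 without joint loss replicate 1, and 67 genes were called lower without joint loss replicate 2. They were 56 and 16 without siCtrl replicate 1, 57 and 16 without siCtrl replicate 2, 47 and 11 without siDnmt1 replicate 1 and 46 and 11 without siDnmt1 replicate 2. The share of calls that were higher was 59.1% with quantile normalization, against 72.7%.

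Joint loss against siDnmt1 asks what 4OHT added in cells with Dnmt1 siRNA. Here 364 genes rose (3.38%) and 244 fell (2.27%), and the groups did not overlap for 71.5%. Interferon-induced genes were called higher in 7 of 61 and lower in 0, with a median of 2.46, and Zfp genes higher in 37 of 266 and lower in 2, with a median of 0.62. Collagens and matrix genes were called lower in 7 of 22 and higher in 0. Germline genes were called higher in 1 and lower in 3 of 16. Cluster histones were called higher in 9 of 49 and lower in 0, with a median of 1.03. The median over all genes was 0.14 and moved to about 0 after median-ratio scaling, which called 219 higher and 315 lower (41.0% higher, against 59.9%). Quantile normalization gave 233 and 373 (38.5%). The direction of the balance therefore turned with scaling, while the genes named next moved by far more than 0.14.

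Mx1, a dynamin-like antiviral GTPase, was at 4.76 and 4.70 FPKM in siDnmt1 and 183 and 83.5 in joint loss (4.68 ± 1.14 (SE), adjusted p = 0.0459). Oasl1 and Rsad2 followed (4.25 and 4.22, adjusted p = 0.0261 and 0.0421). Cyp26c1, a retinoic acid hydroxylase, was at 0.219 and 0.0892 FPKM in siDnmt1 and 5.16 and 4.93 in joint loss (4.39 ± 1.00 (SE), adjusted p = 0.0397). Lag3, an inhibitory receptor of lymphocytes, was at 0.165 and 0.268 FPKM in siDnmt1 and 4.51 and 4.73 in joint loss (3.92 ± 0.52 (SE), adjusted p = 0.0128), and Gm13283 at 0.0982 and 0.0999 and 3.88 and 3.66 FPKM (adjusted p = 0.00729). These 6 genes were picked among calls whose groups did not overlap, so their separation from siDnmt1 is not a result of its own. On the lower side Postn (-4.62), Cxcl14 (-4.38), Lrrc17 (-4.11), Mgp (-3.87) and Lama4 (-3.72) led, together with Dpt. Dpt, a small matrix protein, was at 0.299 and 0.30 FPKM in siCtrl, 2.82 and 2.53 in siDnmt1, 0.0400 and 0.0408 in 4OHT + siCtrl and 0.168 and 0.0454 in joint loss (-3.81 ± 0.44 (SE), adjusted p = 0.011), high with Dnmt1 siRNA alone and low with 4OHT added.

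Of 25 p53 targets 4 were called higher in this comparison, Sesn2, Mdm2, Trp53inp1 and Cdkn1a, and 0 lower, beside 3.38% and 2.27% of all tested genes. Cdkn1a was at 20.0 and 20.7 FPKM in siDnmt1 and 56.2 and 59.0 in joint loss (1.5 ± 0.25 (SE), adjusted p = 0.0217), close to its siCtrl level. Mdm2, the ubiquitin ligase of p53, was at 48.0 and 41.4, 31.8 and 28.7, 65.8 and 107 and 63.5 and 61.1 FPKM in siCtrl, siDnmt1, 4OHT + siCtrl and joint loss (1.04 ± 0.22 (SE), adjusted p = 0.0367 against siDnmt1). Leaving out siDnmt1 replicate 1 or 2 left 22 or 27 higher and 28 or 34 lower calls over all genes, and leaving out joint loss replicate 1 left 63 and 132. Without siCtrl replicate 1 or 2 the higher calls were 100 each and the lower 105 each, without joint loss replicate 2 the higher calls were 198, and without 4OHT + siCtrl replicate 1 or 2 they were 629 and 631.

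The interaction asks whether joint loss differed from the sum of both single differences on the log2 scale. It was called positive for 13 genes (0.121%) and negative for 8 (0.0743%), and in 8 of the 13 and 7 of the 8 at least 1 library was listed at 0. When only genes above 0 in all libraries were fitted, 2 were positive and 0 negative. The counts were 324 and 154 without 4OHT + siCtrl replicate 1 and 49 and 37 without replicate 2. The positive calls numbered 5 without siCtrl replicate 2 and 8 without siDnmt1 replicate 1. The negative calls numbered 14 without siCtrl replicate 1 or joint loss replicate 1, 25 without joint loss replicate 2, 4 without siCtrl replicate 2 or siDnmt1 replicate 2 and 3 without siDnmt1 replicate 1. At an unadjusted p under 0.05 limma gave 725 positive and 348 negative.

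Mrpl35 (chr6:71762991-71773778), a protein of the mitochondrial ribosome, was at 8.77 and 9.22 FPKM in siCtrl, 7.73 and 8.69 in siDnmt1, 9.77 and 9.52 in 4OHT + siCtrl and 66.6 and 62.8 in joint loss (interaction 2.86 ± 0.15 (SE), adjusted p = 0.00206). Ubxn7, an adaptor of the p97 segregase, was at 7.48 and 7.15, 5.68 and 6.07, 8.71 and 7.52 and 22.1 and 20.3 FPKM (1.69 ± 0.18 (SE), adjusted p = 0.0373). In both genes the joint loss libraries were the highest and the other 6 lay close together. Fbn2, a fibrillin, was at 39.6 and 35.7, 27.4 and 29.6, 8.39 and 8.58 and 2.19 and 2.27 FPKM (-1.48 ± 0.16 (SE), adjusted p = 0.037) and fell by more than both single differences together.

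Dcn, the collagen-binding proteoglycan decorin, was at 49.4 and 49.2, 16.3 and 16.3, 1.40 and 1.39 and 3.92 and 3.63 FPKM (2.96 ± 0.16 (SE), adjusted p = 0.00206). It was higher in joint loss than in 4OHT + siCtrl (1.38 ± 0.11 (SE), adjusted p = 0.0036). Osr2, a zinc finger factor of limb and palate, was at 29.6 and 32.5, 1.58 and 2.04, 1.10 and 0.543 and 0.759 and 0.820 FPKM (4.05 ± 0.45 (SE), adjusted p = 0.0425), and the 3 treated groups were all far below siCtrl. Sulf2, an extracellular sulfatase, was at 20.7 and 21.2, 3.93 and 3.92, 10.8 and 11.3 and 6.00 and 6.46 FPKM (1.58 ± 0.16 (SE), adjusted p = 0.0317), lowest in siDnmt1. Among ERV families the interaction was called for VL30 class III (-5.18 ± 0.51 (SE), adjusted p = 0.0317), where joint loss was near the level of 4OHT + siCtrl.

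Some genes changed between a clear value and 0. Ddit3, the stress factor Chop, was listed at 0 in siCtrl and siDnmt1, at 113 and 37.3 FPKM in 4OHT + siCtrl and 104 and 83.5 in joint loss (adjusted p = 0.000159). Surf2 was listed at 0 in 6 libraries and at 47.2 and 52.5 FPKM in joint loss. Psph was at 57.6 and 63.0 FPKM in joint loss, 0 in siCtrl and siDnmt1, and at 74.9 and 0 in 4OHT + siCtrl. In the other direction Kdelr3 was at 71.8 and 71.8 FPKM in siCtrl, 61.6 and 56.8 in siDnmt1 and listed at 0 in the 4 libraries with 4OHT. Dnajc19 and Gps2 were listed at 0 in joint loss, Dnajc19 at 40.5 and 34.8 FPKM in siCtrl and also at 0 in 4OHT + siCtrl replicate 1, and Gps2 at 28.1 and 30.7 FPKM in siCtrl and also at 0 in siDnmt1 replicate 2. A value of 0 for such genes may be a locus counted under a joined name, so these changes are given as listed and no fold is drawn from them.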

How the data were processed

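For 8 iMEF libraries of the siRNA experiment, total RNA was extracted per the labels and mRNA was taken and sequenced as single reads by the study. Reads were aligned to mm9 with TopHat2 2.0.12, which kept 1 best alignment per read, and assembled library by library with Cufflinks against RefSeq genes. The deposited values are FPKM per locus, normalized by the authors to mapped fragments and transcript length. The authors' Cuffdiff tables of fold changes and p-values were not used. Libraries of other cells and experiments were not analysed here, and a few genes are not reported here.

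FPKM values of loci with the same symbol were summed. A locus that joins several genes stayed an entry of its own. Of 23059 names 1375 lacked a value in some library, and an exact 0 can arise from the assembly. Genes with at least 1 FPKM in at least 2 libraries (10762) and 7 ERV families were fitted together in limma 3.58.1 (R 4.3.3) on log2(FPKM + 0.1), with 4 group means over all 8 libraries and a trended variance, and p-values were adjusted by Benjamini-Hochberg over all rows. A call needed an adjusted p under 0.05 and a fold of at least 2. Data on 10762 genes were simulated for all 8 libraries in 4 groups, with changes set in joint loss. Against siCtrl 69 of 100 changes of 1.5 and 90 of 100 changes of 3 (log2) were recovered, with 10 false calls. The simulation gave each gene the same spread in every group, whereas replicates differed by an SD of 0.178 in siDnmt1 and 0.520 in 4OHT + siCtrl. It therefore does not give the error rate of the calls reported here. A single gene tested by exact permutation of 2 against 2 libraries could not go below p = 0.333, so no such test is given.

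Reads of unnamed loci were estimated from FPKM and the upper limit of its deposited confidence interval, taken as the error of a count. They were not counted directly. The estimates were summed over loci lying at least 50% inside the elements of each family in the study's element list. The sums were scaled to 1000000 fragments of the implied depth (RPM, with depths of 13583000 to 15351000 fragments). That depth was derived from the intervals, FPKM and lengths of genes with a single exon. Depth sets the precision of low genes. Promoters were read from the mm9 genome at GENCODE starts, for 90.8% of tested genes.

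Genes were named by these rules: the targeted genes, up to 6 members of each list with the largest change, the 12 highest and 12 lowest calls above 0 without overlap, the 6 highest and 6 lowest against each single treatment, the called interactions, and 3 genes listed at 0 in a group in each direction. Other members are named to account for the counts and were chosen after their values were seen. The members and lists were chosen with earlier results of these data known.

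Replicate numbers were not taken as pairs, since deviations of same-numbered libraries correlated between -0.0614 and 0.0249. Alternatives changed the pseudocount, filter, scaling, variance trend, groups in the fit, fold limit, replicate block and each library in turn. Leaving out both 4OHT + siCtrl libraries, and keeping only genes above 0 in all libraries, were added after seeing the data.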

Additional observations from a re-analysis of the deposited data

Results flagged for a closer look

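The response to Dnmt1 siRNA differed between cells with and without 4OHT for 6 genes above 0 in all libraries and 1 ERV family, by limma's interaction test. On the log2 scale the difference was 4.05 for Osr2 (adjusted p = 0.0425), 2.96 for Dcn (adjusted p = 0.00206), 2.86 for Mrpl35 (adjusted p = 0.00206), 1.69 for Ubxn7 (adjusted p = 0.0373) and 1.58 for Sulf2 (adjusted p = 0.0317). It was -1.48 for Fbn2 (adjusted p = 0.037) and -5.18 for VL30 class III (adjusted p = 0.0317). When only genes above 0 in all libraries were fitted, 2 genes were called positive and 0 negative.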

How the results depend on the processing

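In joint loss against siCtrl, 578 genes were called higher with a filter of 5 FPKM, and 1982 higher and 1653 lower by the adjusted p alone. Leaving out 1 library at a time gave 370 to 1056 higher and 404 to 810 lower calls. Against 4OHT + siCtrl the higher calls numbered 49 with a filter of 5 FPKM, 209 with none, 61 among genes above 0 in all libraries and 30 with only the groups compared, and the lower ones 7 with only the groups compared and 101 by the adjusted p alone. The leave-one-out ranges were 44 to 596 and 11 to 282. Against siDnmt1 the higher calls numbered 217 with a filter of 5 FPKM, 219 with median-ratio scaling, 233 with quantile normalization, 564 with only the groups compared, 626 without both 4OHT + siCtrl libraries and 985 by the adjusted p alone, and the lower ones 373 with quantile normalization and 490 by the adjusted p alone. The leave-one-out ranges were 22 to 631 and 28 to 346. Positive interactions numbered 7 with a filter of 5 FPKM, 31 with none, 29 without a trend, 27 with a pseudocount of 1 and 2 among genes above 0 in all libraries. Negative ones numbered 5, 21 and 15 with the first 3 of these and 0 among genes above 0. The leave-one-out ranges were 5 to 324 and 3 to 154, and the interaction could not be fitted with only the groups compared. The cause of these moves was not tested.

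With the replicate number as a block, joint loss against siCtrl had 903 higher and 715 lower calls, against 4OHT + siCtrl 74 and 25, against siDnmt1 280 and 185, and the interaction 7 positive and 6 negative. The numbers were not taken as pairs.

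Against siCtrl the log2 differences of the ERV families ranged with 1 library left out from 11.42 to 15.88 for IAPEz, 12.33 to 12.38 for MMERVK10C, 6.25 to 6.50 for VL30 class I, 9.13 to 11.98 for class II, 7.34 to 8.34 for class III and 6.15 to 7.06 for class IV, values that depend on the pseudocount where siCtrl is at 0. RLTR4 ranged from -0.074 to 1.03, the latter past the threshold. Of 152 named genes 1 turned its direction, Setdb1, which ranged from -0.35 to 0.0023 with 1 library left out, and 140 stayed on their side of the threshold with a pseudocount of 1. Over all single-library omissions, named genes lost their call 206 times and stayed on their side of the threshold 967 times. Depth limits the genes below 1 FPKM, which were not tested.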
